A study of Homo sapiens with 4 samples.

Results

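The 35 genes described here encode aminoacyl-tRNA synthetases. They comprise 19 genes of the cytosolic enzymes and 16 of the mitochondrial enzymes, chosen by name from the known family, out of 22841 genes with a symbol and 13247 genes tested. All 35 passed the filter on low counts, with 107 to 10913 counts per library, so none was lost to it. RNA came from PC-3M-luc, an established human prostate carcinoma cell line descended from a metastasis and carrying a luciferase reporter. The control group (2 libraries) received a control RNAi, and the knockdown group (2 libraries) received RNAi against LSD1, the histone demethylase encoded by KDM1A. Cells of both groups went through the same transfection and were collected after 72 h. The labels call the libraries of a group biological replicates without naming separate cultures, so p-values measure only the spread between these libraries. RNAi lowers a transcript without removing the gene, and neither the duplex sequences nor their number are given in the sources used here.

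Aminoacyl-tRNA synthetases join each amino acid to its tRNAs and so set the accuracy of the genetic code. Human cells keep a cytosolic set and a mitochondrial set, both encoded in the nucleus. The mitochondrial enzymes charge the tRNAs used to make the respiratory chain subunits encoded in mitochondrial DNA. A few genes, such as GARS1 and KARS1, serve both compartments through isoforms, and they are counted here with the cytosolic genes. The enzymes fall into class I and class II, which have unrelated catalytic folds. Several cytosolic enzymes sit together in a multisynthetase complex held by the scaffold proteins AIMP1, AIMP2 and EEF1E1. Many cytosolic synthetase genes are known targets of ATF4, the transcription factor of the amino acid response. In that response, kinases phosphorylate the initiation factor eIF2, which lowers protein synthesis in general and favours translation of ATF4 mRNA.

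Counts assigned to genes ranged from 12040681 to 12831374 per library, so that 3 counts corresponded to 0.234 to 0.249 CPM (counts scaled to the size and composition of each library). KDM1A stood at 2920 and 2892 counts in the control libraries and at 218 and 234 counts in the knockdown libraries. On the log2 scale this is -3.72, standard error 0.0974 (edgeR adjusted p = 2.56e-24, quasi-likelihood test). The epithelial markers KRT8, KRT18 and EPCAM had 752 to 3718 counts per library, and KRT8 and EPCAM rose by 0.47 and 0.50 on the log2 scale (edgeR adjusted p = 1.84e-05 and 3.46e-05). The 5 markers of androgen-responsive luminal prostate cells had 0 to 7 counts, in a line that does not depend on androgen. Of 4 leukocyte markers PTPRC was at 0 in every library, CD68, also a lysosomal gene of many other cells, fell by 0.92 on the log2 scale and CD79A by 1.01, and LYZ rose, with 4 and 2 counts in control and 17 and 13 in knockdown libraries. The summed leukocyte markers were at 88.84 to 90.99 CPM in control and 47.36 to 49.81 CPM in knockdown libraries, nearly all of it CD68. Of 3 fibroblast markers COL1A2 rose by 0.61 on the log2 scale, COL1A1 was at -0.11 and did not pass, and PDGFRB had 2 to 11 counts, with sums of 46.82 to 50.26 CPM in control and 53.17 to 57.61 CPM in knockdown libraries. Of 3 endothelial markers PECAM1 fell by 0.74 on the log2 scale from at most 38 counts, VWF had 1 or 2 counts and CDH5 was at 0, with sums of 3.14 to 3.29 CPM in control and 1.62 to 2.21 CPM in knockdown libraries. Erythroid and liver markers had at most 7 counts. The part of these shifts in the results below was not tested. At an adjusted p under 0.05, 18.2% of all tested genes were higher and 17.9% lower in the knockdown libraries, together 36.1%.

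Most of the synthetase genes did not pass the test. Of the 35 genes, 7 rose and 4 fell, so that 31.4% were called, beside 36.1% of all tested genes. The changes were small, with log2 fold changes from -0.35 (SARS1) to 0.63 (MARS2). Of the 11 called synthetase genes 1 (MARS2) changed by at least 1.5-fold, beside 35.1% of all called genes. The median absolute log2 fold change was 0.31 over the 11 called synthetase genes and 0.48 over all called genes. On simulated counts the test recovered 72% of genes changed 1.5-fold but 22% of genes changed 1.25-fold. Only 50 genes were changed at each fold there, so a gene needed a smaller p-value to pass than in the real libraries. These rates therefore do not carry over directly. A synthetase gene that did not pass may still have changed by a small amount, and the largest such log2 fold change was 0.26 in size. The control and knockdown values did not overlap for 25 of the 35 genes, beside 67.2% of all tested genes. In bulk RNA a change in the RNA per cell cannot be told apart from a change in the make-up of the culture.

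**Figure D1:**
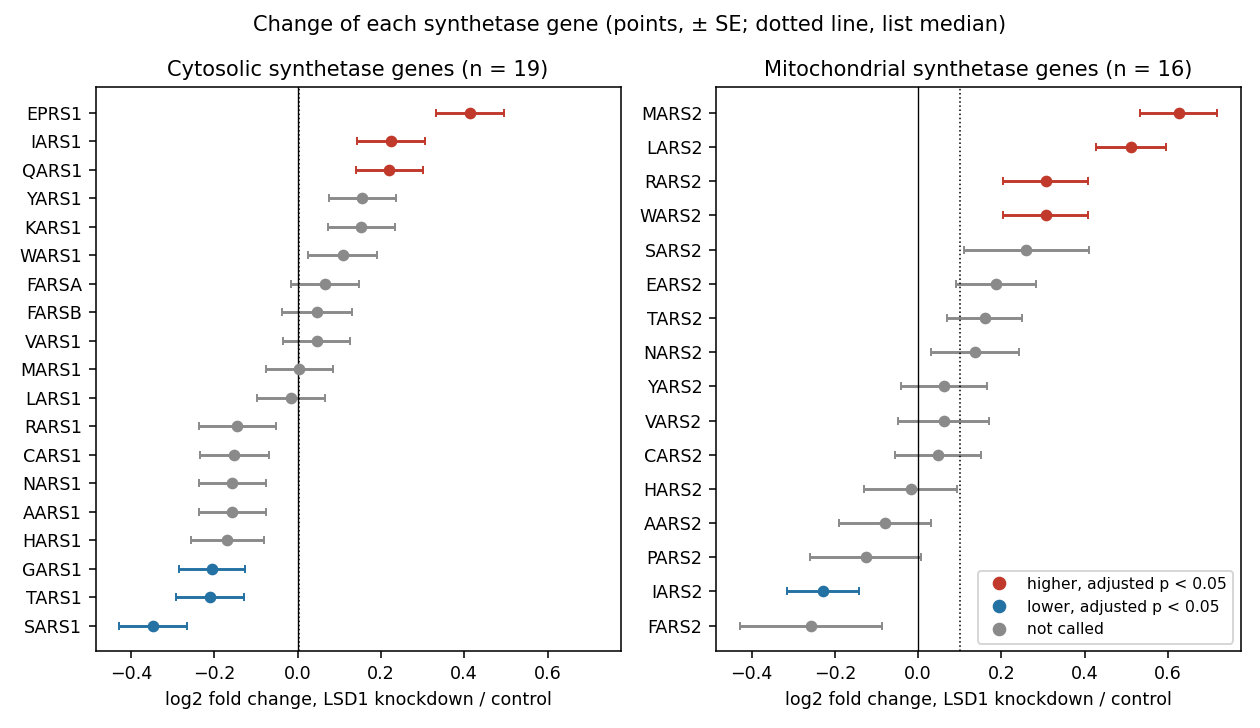
Log2 fold change (knockdown against control) of each synthetase gene, with bars for the standard error from edgeR, cytosolic genes on the left and mitochondrial genes on the right. Red points were called higher, blue points lower and grey points neither, and dotted lines are the medians of 0.00 and 0.10. MARS2 at 0.63 lies farthest above 0 and SARS1 at -0.35 farthest below.

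The 2 compartments differed first in level. Per kilobase of transcript, the control level of the cytosolic genes had a median of 106 CPM, from 29.8 for HARS1 to 207 for SARS1. The mitochondrial genes had a median of 11.9 CPM per kilobase, from 4.81 for SARS2 to 46.9 for IARS2, so the cytosolic median was 8.94 times the mitochondrial one. IARS2, the mitochondrial isoleucyl enzyme, was the only mitochondrial gene whose control level per kilobase exceeded that of any cytosolic gene, namely RARS1, FARSB and HARS1. These lengths are those of 1 reference transcript per gene, the longest GENCODE transcript matched to the RefSeq transcript counted. The isoforms present in the cells were not determined, which limits small differences in rank. Because the mitochondrial genes had fewer counts, the median standard error of the log2 fold change was 0.103 for them and 0.0816 for the cytosolic genes.

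**Figure D2:**
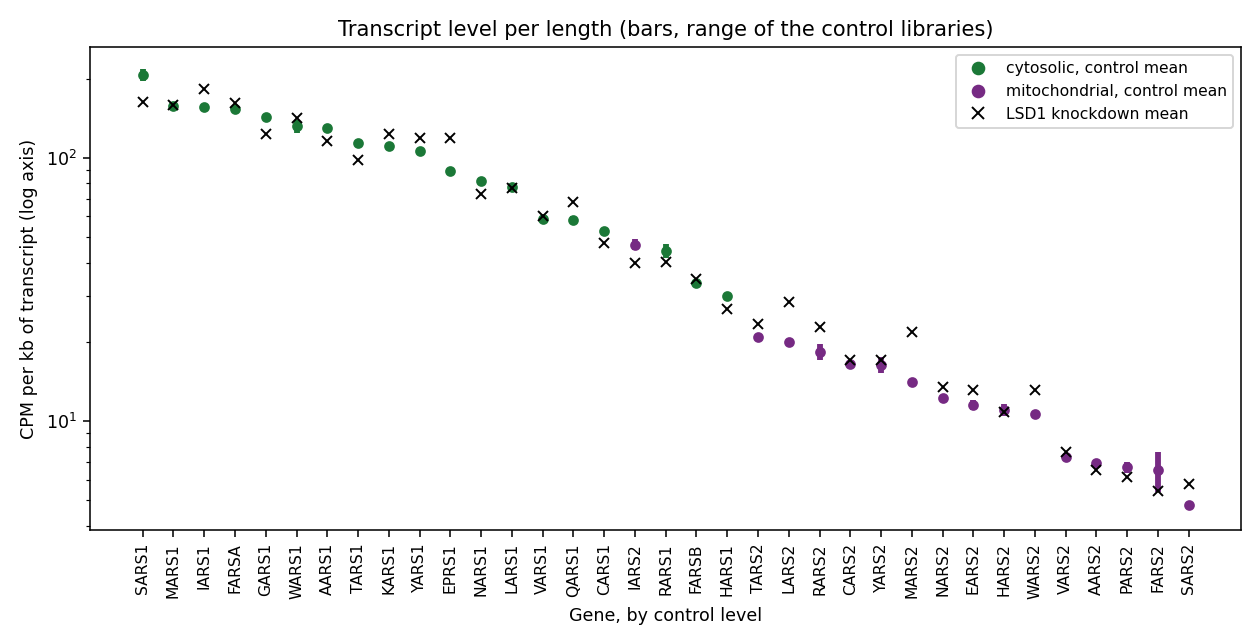
Level of each synthetase gene in CPM per kilobase of transcript, on a log axis and in order of the control level, with coloured points for control means by compartment, bars for the range of the control libraries and crosses for knockdown means. The control means of the cytosolic genes lie at 29.8 and above, and of the mitochondrial genes IARS2 at 46.9 reaches into their range.

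The 19 cytosolic genes comprised 3 that rose, 3 that fell and 13 that did not pass, with a median log2 fold change of 0.00, the same as that of all tested genes (0.00). Summed over the 19 genes, the level was 5973 to 6223 CPM in control libraries and 6160 to 6272 CPM in knockdown libraries, so the groups overlapped. The 16 mitochondrial genes comprised 4 that rose, 1 that fell and 11 that did not pass, with a median of 0.10. Their summed level was 668.6 to 676.3 CPM in control libraries and 730.5 to 746.6 CPM in knockdown libraries, with no overlap. The largest rises in this sum were those of LARS2 (group means 83.79 and 119.4 CPM) and MARS2 (42.59 and 65.69 CPM). IARS2 fell from a mean of 166.8 to 142.4 CPM. Over the 16 genes, 11 log2 fold changes were above 0 and 5 below. As a share, 15.8% of the cytosolic and 25% of the mitochondrial genes rose, beside 18.2% of all tested genes. The mitochondrial share rests on 4 genes, and the difference between the compartments was not tested.

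Library by library, the median deviation of the mitochondrial genes from their own mean over the 4 libraries was -0.09 and -0.04 on the log2 scale for the controls, and 0.05 and 0.09 after knockdown. For the cytosolic genes the same median was 0.00 and 0.02 for the controls, and 0.00 and -0.04 after knockdown. The mitochondrial median lay below the cytosolic one in both control libraries and above it in both knockdown libraries, by 0.13 at most (knockdown replicate 2). Each gene's deviations cancel out over the 4 libraries, so the control and knockdown sides are not separate observations.

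The cytosolic genes that rose were EPRS1, IARS1 and QARS1, all members of the multisynthetase complex. EPRS1 (NM_004446), a fused enzyme that charges both glutamate and proline tRNAs, stood at 436.7 and 455.5 CPM in the control libraries and at 619.7 and 569.2 CPM in the knockdown libraries. Both knockdown values were above both control values, and the fold was 1.33 (log2 fold change 0.41, standard error 0.0824, edgeR adjusted p = 0.000163). IARS1 (NM_013417), the isoleucyl enzyme and the most abundant of the family by count, went from 715.8 and 740.1 CPM to 857.5 and 842.8 CPM (log2 fold change 0.22, edgeR adjusted p = 0.0308). QARS1 (NM_005051), the glutaminyl enzyme, went from 159.6 and 169.4 CPM to 188.3 and 194.9 CPM (log2 fold change 0.22, edgeR adjusted p = 0.0316). The groups did not overlap for any of the 3. The EPRS1 call was kept in all 12 alternative settings, whereas the IARS1 and QARS1 calls were lost when any of the 4 libraries was left out, with edgeR adjusted p up to 0.147 and 0.23. DESeq2 did not call QARS1.

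The cytosolic genes that fell were SARS1, TARS1 and GARS1, none of which is on the complex list. SARS1 (NM_006513), the seryl enzyme, which also charges the selenocysteine tRNA with serine, went from 364.1 and 401.8 CPM to 303.7 and 298.7 CPM. The knockdown values were close to each other and below both controls (fold 1.27, log2 fold change -0.35, standard error 0.0816, edgeR adjusted p = 0.00106), and all 12 alternatives kept the call. TARS1 (NM_152295), the threonyl enzyme, went from 477.5 and 504.8 CPM to 438.0 and 410.5 CPM (log2 fold change -0.21, edgeR adjusted p = 0.0413). GARS1 (NM_002047), the glycyl enzyme of both compartments, went from 371.1 and 380.2 CPM to 327.8 and 324.0 CPM (log2 fold change -0.21, edgeR adjusted p = 0.0428). Neither overlapped between groups. GARS1 shares 99 nucleotides with GARS1-DT on the opposite strand, which had a mean count of 42.25 beside 4359 for GARS1. GARS1 lost its call without any 1 library (adjusted p up to 0.162), and TARS1 lost it without control replicate 2 or knockdown replicate 2 (up to 0.261).

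The 13 other cytosolic genes had log2 fold changes from -0.17 (HARS1) to 0.16 (YARS1), and the lowest edgeR adjusted p among them was that of NARS1, at 0.127. They were AARS1, CARS1, FARSA, FARSB, HARS1, KARS1, LARS1, MARS1, NARS1, RARS1, VARS1, WARS1 and YARS1. LARS1, whose product also senses leucine for the mTORC1 kinase, stood at 367.7 and 371.8 CPM in control libraries and 382.2 and 349.6 CPM in knockdown libraries, with the groups overlapping. MARS1, which charges both initiator and elongator methionine tRNAs, stood at 447.8 and 469.1 CPM and then 457.8 and 461.4 CPM, a log2 fold change of 0.00. WARS1, the tryptophanyl enzyme, which interferon gamma is known to induce, stood at 385.1 and 429.7 CPM and then 437.9 and 440.4 CPM (log2 fold change 0.11, edgeR adjusted p = 0.324). Of 8 other interferon gamma genes 5 were tested, of which 1 rose and 1 fell. These shares, 20% higher and 20% lower, stand beside 18.2% and 17.9% of all tested genes. TAP1, a peptide transporter gene, rose by 0.56 and GBP2, a guanylate-binding protein gene, fell by 0.89 on the log2 scale (edgeR adjusted p = 0.0298 and 0.00111). IRF1, a transcription factor of that pathway, had a log2 fold change of -0.13 and did not pass. The TAP1 call was lost with DESeq2 (DESeq2 adjusted p = 0.191), with sums over the rows of a symbol (edgeR adjusted p = 0.0628) and without control replicate 1 or knockdown replicate 1 (edgeR adjusted p = 0.267 and 0.173), whereas the GBP2 call was kept in all 12 alternatives. TAP1 and GBP2 were low, at 3.4 to 7.1 CPM in every library.

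Of the mitochondrial genes that rose, MARS2 and LARS2 rose most. MARS2 (NM_138395), the mitochondrial methionyl enzyme, encoded in 1 exon, stood at 41.59 and 43.60 CPM in control cells and reached 63.56 and 67.81 CPM after knockdown. In raw counts these were 517 and 530 against 777 and 878. The fold was 1.54 (log2 fold change 0.63, standard error 0.0928, edgeR adjusted p = 2.51e-06). LARS2 (NM_015340), the mitochondrial leucyl enzyme, went from 82.78 and 84.81 CPM to 119.7 and 119.2 CPM (fold 1.43, log2 fold change 0.51, standard error 0.0839, edgeR adjusted p = 1.18e-05). For both genes the replicates of a group lay far closer to each other than the groups did, all 12 alternatives kept the call, and no other annotated exon overlaps theirs.

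RARS2 and WARS2 rose by less. RARS2 (NM_020320), the mitochondrial arginyl enzyme, went from 35.80 and 30.93 CPM to 41.23 and 41.32 CPM (fold 1.24, log2 fold change 0.31, edgeR adjusted p = 0.0176). WARS2 (NM_201263), the mitochondrial tryptophanyl enzyme, went from 29.85 and 29.94 CPM to 37.47 and 36.45 CPM (fold 1.24, log2 fold change 0.31, edgeR adjusted p = 0.0179). Neither overlapped between groups, but DESeq2 called neither, at DESeq2 adjusted p = 0.100 and 0.103. Without control replicate 2, the RARS2 value was 0.20 at an edgeR adjusted p of 0.243. The WARS2 call was lost without control replicate 1, control replicate 2 or knockdown replicate 1. WARS2 shares 180 nucleotides of exon with the antisense gene WARS2-AS1, and whether reads were counted by strand is not stated.

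IARS2 (NM_018060) was the mitochondrial gene that fell, from 174.4 and 159.2 CPM to 154.0 and 130.8 CPM (log2 fold change -0.23, standard error 0.0872, edgeR adjusted p = 0.0388). The groups did not overlap, though the lower control and the higher knockdown value were near each other. The call was lost in 6 of 12 alternatives, among them DESeq2 and leaving out control replicate 1 or knockdown replicate 2, with adjusted p up to 0.441. The 11 mitochondrial genes that did not pass were AARS2, CARS2, EARS2, FARS2, HARS2, NARS2, PARS2, SARS2, TARS2, VARS2 and YARS2. They ranged from -0.26 for FARS2, at 8.93 and 12.67 CPM in control and 9.816 and 8.264 CPM in knockdown libraries, to 0.26 for SARS2, at 9.654 and 10.12 CPM and then 11.53 and 12.13 CPM. These 2 were among the least abundant of the family, and SARS2 shares 1492 nucleotides of exon with another gene on the same strand. VARS2 shares 1858 nucleotides with GTF2H4 on the same strand, so its value is uncertain. EARS2, the mitochondrial glutamyl enzyme, came nearest to the threshold, from 43.52 and 47.79 CPM to 50.06 and 53.83 CPM (log2 fold change 0.19, edgeR adjusted p = 0.125), and shares 370 nucleotides with UBFD1.

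**Figure D3:**
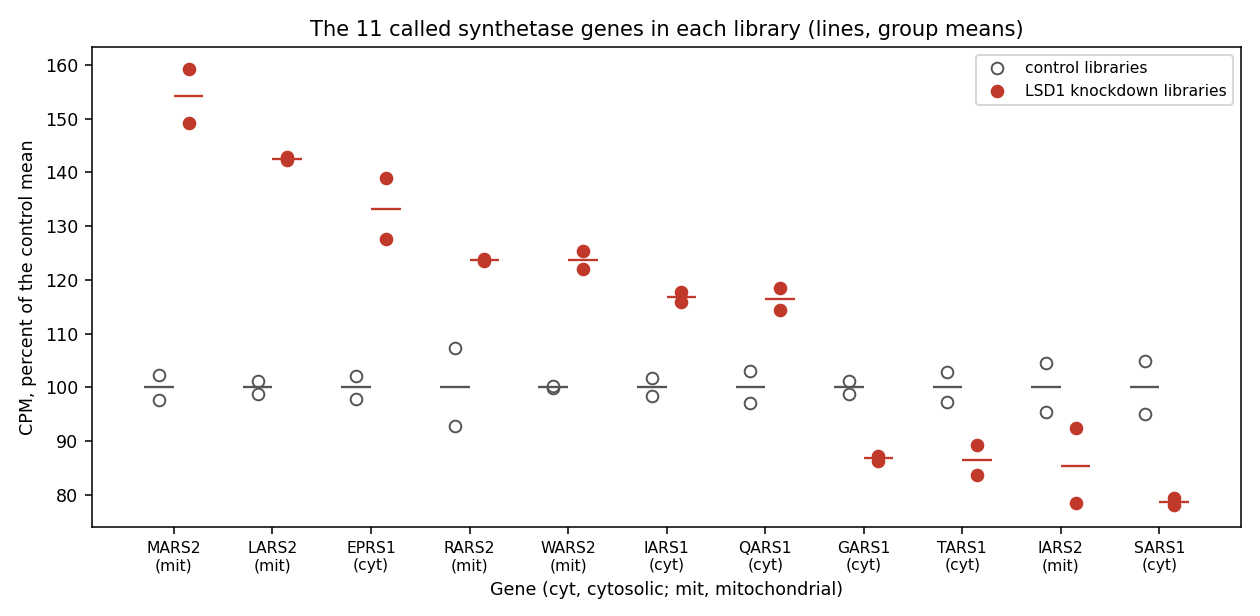
Level of each of the 11 called synthetase genes in every library, as a percent of that gene's control mean CPM, with open points for the control libraries, filled points for the knockdown libraries and lines for the group means. The points of the 2 groups do not overlap for any of the 11 genes, and MARS2 is highest and SARS1 lowest after knockdown.

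Read by amino acid, the 2 compartments were set side by side in 17 pairs of a cytosolic and a mitochondrial gene for 16 amino acids. The measure was the log2 ratio of cytosolic to mitochondrial CPM in each library, which does not depend on the scaling of that library. This ratio fell for 11 pairs and rose for 6. The rises included both pairs that hold EPRS1 and both that hold FARS2, so the pairs are not separate observations. The ratio did not overlap between groups for 8 of the falls and 3 of the rises, 11 of 17 pairs. Of all tested genes 67.2% did not overlap, a share for the levels of single genes and not for ratios. With 2 libraries against 2, the exact two-sided permutation test cannot go below p = 0.333, and the lowest adjusted value over the 17 pairs was 0.515, so no pair could pass.

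The methionine pair moved most. MARS1 to MARS2 went from 3.43 in both control libraries to 2.85 and 2.77 in the knockdown libraries, a change of -0.62. MARS2 rose, beside a log2 fold change of 0.00 for MARS1. For serine, SARS1 to SARS2 went from 5.24 and 5.31 to 4.72 and 4.62, a change of -0.60, of which the called part was the fall of SARS1. For leucine, LARS1 to LARS2 went from 2.15 and 2.13 to 1.68 and 1.55, with LARS2 the gene that was called.

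Further pairs with lower ratios in the knockdown libraries were those for arginine, asparagine, cysteine, threonine and tryptophan. The arginine ratio changed by -0.46. RARS1 stood at 101.3 and 89.41 CPM and then 93.5 and 79.09 CPM, beside the rise of RARS2. TARS1 to TARS2 went from 3.10 and 3.11 to 2.79 and 2.68, with TARS2 at 55.51 and 58.32 CPM and then 63.15 and 64.03 CPM (log2 fold change 0.16, not called). The tryptophan ratio changed by -0.20, with both WARS1 and WARS2 above 0. Isoleucine went the other way and was the only amino acid for which both genes were called. IARS1 rose and IARS2 fell, and their ratio went from 2.04 and 2.22 to 2.48 and 2.69, a change of 0.46. EPRS1 charges proline tRNA as PARS2 does in mitochondria, and this ratio rose by 0.54, as did that of EPRS1 to EARS2 by 0.23. PARS2 stood at 16.41 and 14.89 CPM and then 14.32 and 14.37 CPM. GARS1 and QARS1, also called, have no listed mitochondrial partner.

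**Figure D4:**
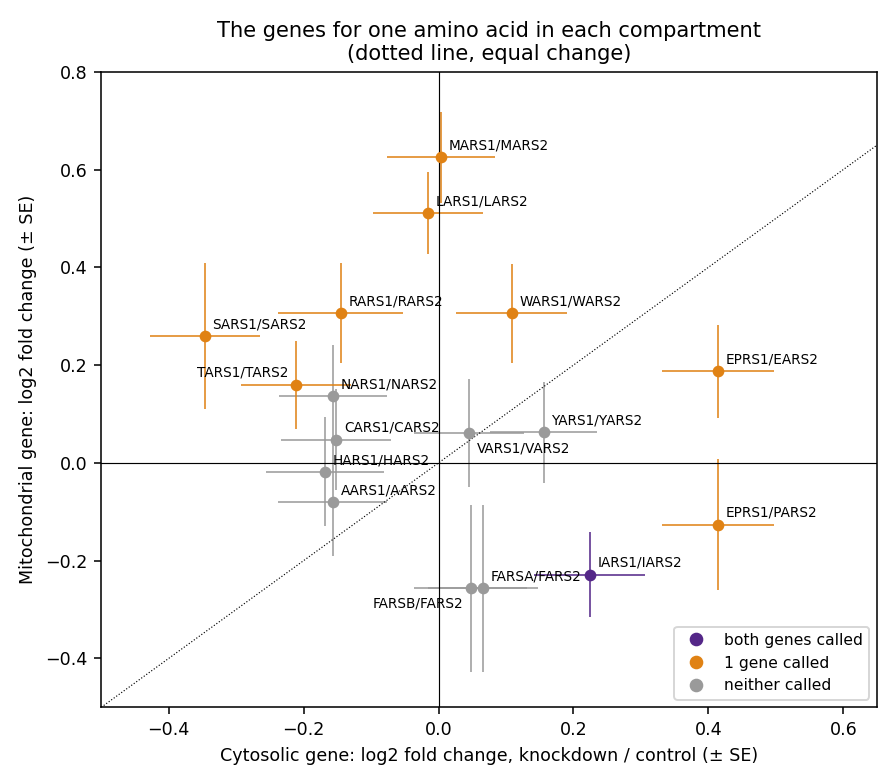
Log2 fold change (knockdown against control) of the mitochondrial gene against that of the cytosolic gene for the 17 pairs that charge the same amino acid, with standard errors from edgeR and a dotted line of equal change. The 11 pairs above the line, with MARS1 and MARS2 at the top, are those whose cytosolic to mitochondrial ratio fell, and IARS1 with IARS2 is the pair with both genes called.

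By structural class, all 7 genes that rose belong to class I. Class I holds 19 genes, of which 7 rose (36.8%), 1 fell and 11 did not pass. Its median log2 fold change was 0.11, and 15 of 19 values were above 0. None (0) of the 16 class II genes rose, 3 fell and 13 did not pass. Their median was -0.10. The count of 0 was the same at an unadjusted edgeR p under 0.05, with DESeq2 and with limma-voom. DESeq2 called 4 class I genes higher and 0 lower, beside 1564 higher and 1618 lower of all 13247 tested genes. EPRS1 carries a class I and a class II domain and was counted with class I. By compartment, 3 of 10 cytosolic and 4 of 9 mitochondrial class I genes were higher. These shares of higher genes stand beside a background of 18.2%. The 3 class II genes that fell are 18.75% of that class, near the 17.9% lower among all tested genes. The class lists were read with the values known, and the difference between the classes was not tested.

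In the multisynthetase complex, 3 of 7 enzymes (EPRS1, IARS1 and QARS1) rose and 0 fell, with a median log2 fold change of 0.15, beside 18.2% higher and 17.9% lower among all tested genes. None fell at an unadjusted edgeR p under 0.05, with DESeq2 or with limma-voom. DESeq2 called 2 of the 7 higher, beside 1564 of all 13247 tested genes. KARS1, the lysyl enzyme of the complex, stood at 264.4 and 271 CPM and then 305.2 and 290 CPM (log2 fold change 0.15, edgeR adjusted p = 0.137), and shares 176 nucleotides of exon with TERF2IP. The 12 cytosolic genes outside the complex list held 0 that rose (also 0 at an unadjusted p, with DESeq2 and with limma-voom) and 3 that fell (25%, beside 17.9% of all tested genes), with a median of -0.15.

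None of the 3 scaffold genes passed, and DESeq2 and limma-voom also called none. AIMP1 stood at 54.46 and 51.08 CPM and then 63.07 and 55.61 CPM (log2 fold change 0.17, edgeR adjusted p = 0.166). AIMP2 stood at 44.41 and 45.32 CPM and then 45.81 and 44.33 CPM, with the groups overlapping. EEF1E1, which links the complex to elongation factor 1, stood at 53.02 and 65.48 CPM and then 52.35 and 47.50 CPM (log2 fold change -0.25, edgeR adjusted p = 0.0524). EEF1E1 was called lower in 4 of 12 alternatives, with an adjusted p of 0.0489 under DESeq2 size factors in edgeR, 0.0425 with the replicate number as a block, 0.00649 without control replicate 1 and 0.0187 without knockdown replicate 1. Without control replicate 2 its adjusted p was 0.646. Its 2 control values differed by more than the groups' nearest values did.

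The 3 cytosolic genes that rose share a sequence feature. In an earlier look at these data, genes whose transcripts hold the 7-mer TACTTCG or ACTTCGA were found more often higher after the knockdown, and these 7-mers were picked after the fold changes were seen. Here 32.1% of the 1612 tested genes that hold one in a GENCODE transcript were higher and 12% lower, beside 16.3% and 18.9% of the genes that hold none. Among the 35 synthetase genes 4 hold one (11.4%, beside 12.6% of all genes searched): EPRS1, IARS1, QARS1 and CARS2. The 16 cytosolic genes without one held 0 that rose and 3 that fell. The duplex sequences are unknown, and the part of these 7-mers in the rises was not tested. Since the 7-mers came from the fold changes of these same data, their presence in these genes is not an independent check. The matches, all in coding sequence, are shown to describe where they lie. Each line gives 30 bases of the transcript, 5′ to 3′, with the 7-mers in capitals and, where the stretch lies in 1 exon, its GRCh38 position on the minus strand.
EPRS1, chr1:220034966-220034995: tgtgaattctaTACTTCGctacttggctag
EPRS1, chr1:220024385-220024414: caatttacttaTACTTCGgatcattttgaa
IARS1, chr9:92285729-92285758: tccactttccaACTTCGAgtcacaccagaa
IARS1, across an exon junction: accaagctcctTACTTCGgtgctgaggact
QARS1, chr3:49103903-49103932: cgacactgtggACTTCGAgcgggaatgtgg
CARS2, across an exon junction: aaggcaatgtcTACTTCGAtctgaagtcta
CARS2, in whose line both 7-mers overlap, stood at 30.97 and 31.09 CPM and then 32.97 and 31.2 CPM and was not called. None of the 4 mitochondrial genes that rose (MARS2, LARS2, RARS2 and WARS2) holds either 7-mer. Another pair picked in the same way, CTAGAAG and TAGAAGA, occurs in 10 of the 35 genes (28.6%, beside 35.3% of all genes searched). Of these 10 genes 1 rose (10%) and 2 fell (20%), beside 17.2% higher and 19.4% lower of all 4520 tested genes that hold one.

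The ATF4 axis was read next, since 12 of the cytosolic genes are often listed as ATF4 targets. ATF4 itself fell, from 421.6 and 414.8 CPM to 338.3 and 343.3 CPM (log2 fold change -0.30, standard error 0.0799, edgeR adjusted p = 0.00383). Of the 20 genes of the amino acid response, ATF4 among them, 10 fell (50%, beside 17.9% of all tested genes), 1 rose and 9 did not pass, with a median of -0.22. Those 9 were ASNS, ATF3, CEBPG, CHAC1, DDIT3, NUPR1, SESN2, SLC3A2 and SLC7A5, with log2 fold changes from -0.17 (CEBPG) to 0.14 (SLC3A2), so the list did not fall as a whole. PSPH, the last enzyme of serine synthesis, went from 44.41 and 44.91 CPM to 17.42 and 17.15 CPM, and VLDLR, a lipoprotein receptor gene, from 50.68 and 53.38 to 23.89 and 25.49 CPM. MTHFD2, a mitochondrial enzyme of one-carbon metabolism, went from 195.7 and 191.7 CPM to 139.2 and 135.9 CPM. The gene that rose was SLC7A11, the cystine transporter, from 139.3 and 156.3 CPM to 341.4 and 340.4 CPM. For each of these 4 genes the adjusted p from edgeR was at most 1.08e-05.

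The 12 ATF4-listed synthetase genes did not fall together. Of these, 2 rose (EPRS1 and IARS1), 3 fell (GARS1, SARS1 and TARS1) and 7 did not pass, with a median of -0.08. These shares, 16.7% higher and 25% lower, stand beside 18.2% and 17.9% of all tested genes. The 7 cytosolic synthetase genes not so listed held 1 that rose and 0 that fell (also 0 at an unadjusted p, with DESeq2 and with limma-voom), with a median of 0.05.

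**Figure D5:**
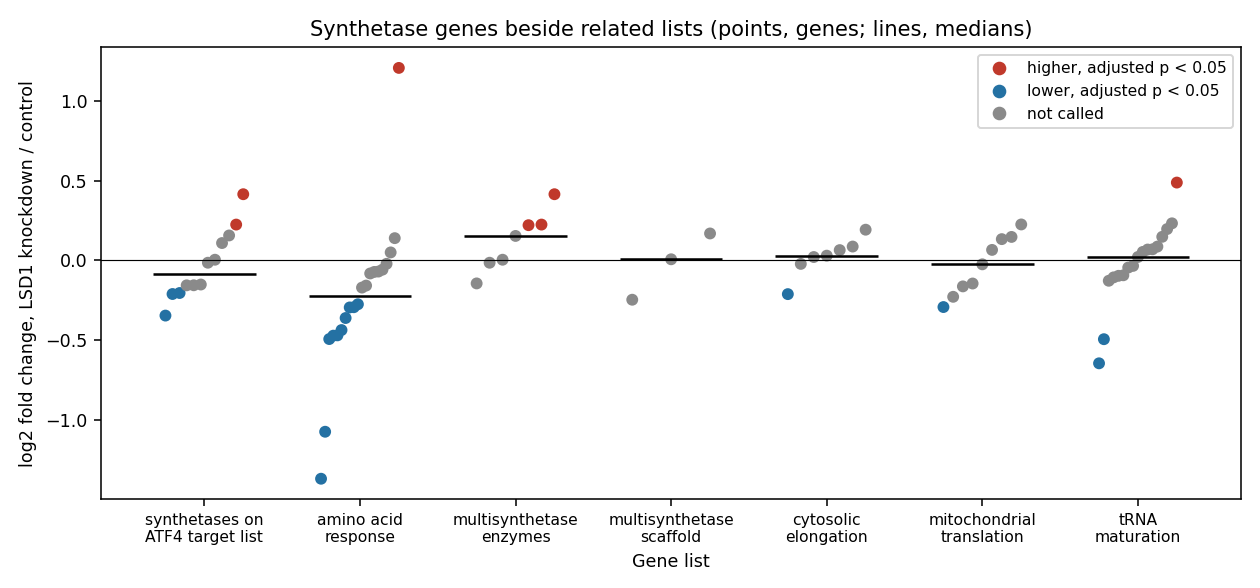
Log2 fold changes (knockdown against control) of the genes of 7 lists, with 1 point a gene (red called higher, blue lower, grey neither) and a line for the median of each list. The amino acid response genes have a median of -0.22, and the ATF4-listed synthetase genes one of -0.08.

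ATF4 pairs with C/EBP proteins on a composite site, the C/EBP-ATF response element, whose core is TGATGCAA. This core was searched on both strands in RefSeq promoters of GRCh38.p14, each 300 bases long (250 before and 50 after the start of a transcript), which exist for 30 of the 35 genes. It occurred in the promoters of 1.08% of all genes with an entry and of 0.735% of tested genes (0.866% and 0.539% of promoters, since a gene can have several). Of the 16 cytosolic genes with an entry 6 held it (37.5% of genes, 28.6% of their 21 promoters), and of the 14 mitochondrial genes 0 did. The looser TGATGNAA, which includes the core, occurred for 4.46% of all genes and added GARS1 among the cytosolic genes and YARS2 among the mitochondrial ones. The sites are shown because they share the core while the fold changes of their genes differ. Each line gives 30 bases on the gene's own strand, with the core or its reverse complement in capitals.
AARS1, chr16:70289675-70289704, minus strand: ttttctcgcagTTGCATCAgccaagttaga
CARS1, chr11:3057407-3057436, minus strand: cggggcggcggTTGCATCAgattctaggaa
IARS1, chr9:92293692-92293721, minus strand: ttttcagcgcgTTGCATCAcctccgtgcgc
MARS1, chr12:57488053-57488082, plus strand: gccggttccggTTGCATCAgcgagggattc
NARS1, chr18:57621804-57621833, minus strand: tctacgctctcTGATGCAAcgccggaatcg
TARS1, chr5:33440956-33440985, plus strand: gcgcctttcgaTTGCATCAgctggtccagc
In 5 of these 6 genes the site began within 15 bases of the transcript start, and in AARS1 187 bases before it. NARS1 alone holds the core in the forward orientation. Their log2 fold changes were -0.16 for AARS1, -0.15 for CARS1, 0.22 for IARS1, 0.00 for MARS1, -0.16 for NARS1 and -0.21 for TARS1. Of these, IARS1 was called higher and TARS1 lower. SARS1, which fell most, and EPRS1, which rose most among cytosolic genes, hold no such letters in these windows. A match describes the sequence only, and binding was not measured.

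Upstream of ATF4, 2 of 11 genes of the eIF2 kinases and their control were higher, 3 lower and 6 not called. These shares, 18.2% higher and 27.3% lower, stand beside 18.2% and 17.9% of all tested genes. EIF2AK1, the heme-regulated eIF2 kinase that also relays mitochondrial stress, rose by a log2 fold change of 0.47 (edgeR adjusted p = 2.23e-05). EIF2AK4, the kinase that senses uncharged tRNA, had a log2 fold change of 0.02 and did not pass. EIF2S3, the gamma subunit of eIF2, rose by 0.36, and EIF2S1, the alpha subunit that the kinases phosphorylate, fell by 0.44 on the log2 scale (edgeR adjusted p = 0.00105 and 9.03e-05). PPP1R15A and PPP1R15B, which direct the phosphatase that reverses this mark, fell by 0.56 and 0.42 on the log2 scale (edgeR adjusted p = 1.37e-05 and 0.000102). These are RNA levels, and phosphorylation was not measured.

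Few genes that act after or beside tRNA charging were called, beside 18.2% higher and 17.9% lower among all tested genes. The called share was 14.3% for the cytosolic elongation factors and 11.1% for the mitochondrial translation factors, beside 36.1% of all tested genes. Of 7 cytosolic elongation factor genes 0 rose and 1, EEF1G, fell by 0.21 on the log2 scale (edgeR adjusted p = 0.0456). Of 9 mitochondrial translation factor genes 0 rose and 1, MTRF1L, a peptide release factor, fell by 0.29 (edgeR adjusted p = 0.0268). At an unadjusted edgeR p under 0.05 each of these lists would hold 1 gene that rose, while DESeq2 and limma-voom called 0 higher in both. The EEF1G call was lost without control replicate 2 or either knockdown replicate (edgeR adjusted p up to 0.331). The MTRF1L call was lost with DESeq2 (DESeq2 adjusted p = 0.128) and without control replicate 1 or knockdown replicate 2 (edgeR adjusted p up to 0.207). Of 4 genes that complete mitochondrial aminoacyl-tRNAs (GATB, GATC, QRSL1 and MTFMT) and of 3 tested genes of tRNA editing, none was called by edgeR, DESeq2 or limma-voom, and at an unadjusted edgeR p under 0.05 only 1 of the first would be lower. MTFMT formylates the methionyl-tRNA that MARS2 makes.

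Among 17 genes of tRNA maturation 1 rose (5.9%), 2 fell (11.8%) and 14 did not pass, beside 18.2% higher and 17.9% lower among all tested genes. PUS7, a pseudouridine synthase, rose by a log2 fold change of 0.49 (edgeR adjusted p = 0.000140). The 2 that fell, GTPBP3 and TRMU, both modify the wobble uridine of mitochondrial tRNAs. GTPBP3 fell by 0.65 and TRMU by 0.49 on the log2 scale (edgeR adjusted p = 5.74e-07 and 0.000995). MTO1, the partner of GTPBP3 in the same step, had a log2 fold change of -0.04 and was not called.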

How the data were processed

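RNA of 4 libraries was sequenced, and 1 table without a header was deposited for each. It holds deposited raw counts for RefSeq transcripts, as judged from the values, which are whole numbers with differing totals. Per the submitters' processing notes, TopHat2 version 2, HOMER, edgeR, DESeq 1.8.3 and hg19 were used, in roles not stated. For the library kit, the strand and the way of counting, a description was not given in the sources used here. The series design text speaks of knockouts, whereas the labels describe RNAi.

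Of 38767 rows, 37205 matched a RefSeq gene table and 472 more matched GENCODE names. Unmatched rows (1090, with 1.38% to 1.40% of the counts) were left out. The row with the highest mean stood for a symbol, which mattered for 10 of the 35 genes. Counts were scaled by TMM. The filter was filterByExpr with a minimum count of 10 and a minimum total of 15, and the test was edgeR's quasi-likelihood test (edgeR 4.0.16, R 4.3.3). Adjusted p-values are Benjamini-Hochberg values over all 13247 genes, called under 0.05. The biological coefficient of variation was 5.96%. On simulated counts over those 13247 genes, for this comparison, 84% of genes changed 2-fold and 98% of genes changed 4-fold were recovered, and 4.83% of calls were false. Only 50 genes were changed at each fold, far fewer than were called in the real libraries, so these rates do not carry over directly.

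The synthetase genes and companion lists were chosen with earlier results of these data known. Values per library are given for called synthetase genes and their amino acid partners. Called members are named from each companion list, up to 4 for lists over 12 genes. A planned comparison of protein sequences was not made. The alternatives were DESeq2 size factors, no scaling factor, no filter, at least 1 CPM in 2 libraries, limma-voom (limma 3.58.1), DESeq2 1.42.0, a replicate block, summing all rows of each symbol and leaving out each library. GENCODE and RefSeq sequences are of GRCh38, another build than that of the counts, and served only for names, lengths, overlaps and sequence searches. The floor of 3 counts covers counting error only, whereas the standard errors come from the quasi-likelihood fit and include the spread between libraries.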

Additional observations from a re-analysis of the deposited data

How the results depend on the processing

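Over 12 alternative settings, 371 of 420 synthetase values kept direction and side of the threshold, 32 lost the call, 2 gained one and 15 changed sign without being called. EPRS1, SARS1, LARS2 and MARS2 kept their calls in every setting. DESeq2 called 1564 genes higher and 1618 lower, and the counts of mitochondrial genes higher and lower were then 2 and 0. Without a scaling factor 1 cytosolic gene fell and 0 mitochondrial genes did, and the medians were 0.039 (cytosolic) and 0.134 (mitochondrial). No mitochondrial gene (0) fell without the filter or with sums over rows. IARS2 is the gene lost there. Leaving out each library gave 1 cytosolic gene higher each time, 1 to 3 lower, 2 to 4 mitochondrial genes higher and 0 to 1 lower, with medians of -0.026 to 0.027 and 0.074 to 0.140. The single cytosolic gene left is EPRS1. The fits that leave out a library rest on 3 libraries, with the lone one assumed to vary like the other group, and the cause of each lost call was not tested.

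Values that changed sign were all uncalled. Without a scaling factor LARS1 was at 0.020 and HARS2 at 0.017. Without the filter MARS1 was at -0.001, and with sums over rows MARS1 was at -0.004 and AIMP2 at -0.001. Leaving out each library gave -0.011 to 0.134 for FARSA, -0.026 to 0.114 for FARSB, -0.086 to 0.049 for LARS1, -0.032 to 0.037 for MARS1, -0.011 to 0.095 for VARS1 and -0.104 to 0.061 for HARS2. It gave -0.002 to 0.115 for VARS2, -0.039 to 0.171 for YARS2, -0.023 to 0.031 for AIMP2 and -0.491 to 0.014 for FARS2. FARS2 was called lower only without control replicate 1 (edgeR adjusted p = 0.0393), and RARS1 only without knockdown replicate 1 (edgeR adjusted p = 0.0384).

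The labels give replicate numbers only. Same-numbered libraries correlated at 0.0676 after removing group means. With the replicate number as a block, 2632 genes rose and 2636 fell, and the block changed no synthetase call (3 higher and 3 lower among cytosolic genes, 4 and 1 among mitochondrial genes). EEF1E1 was then called lower (edgeR adjusted p = 0.0425).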

Other observations

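Of the 35 synthetase genes, 10 have a protein-coding neighbour on the opposite strand whose start lies within 1 kb. These neighbours were looked at after the values were known, and no test was made. Of the 10, 2 were called higher and 2 lower, near the 18.2% higher and 17.9% lower of all tested genes. The sign of the fold change was the same as that of the synthetase gene in 5 (HARS1 and HARS2, which face each other, are counted from both sides). The closest pair went in opposite directions. RARS2 rose (0.31 on the log2 scale), and ORC3, a subunit of the origin recognition complex whose start lies 64 nucleotides away, fell by 0.42 on the log2 scale (edgeR adjusted p = 0.000411). TERF2IP, a telomere protein gene beside KARS1, rose by 0.50 (edgeR adjusted p = 0.000166) and UBFD1, beside EARS2, rose by 0.36 (edgeR adjusted p = 0.0011), while KARS1 and EARS2 were at 0.15 and 0.19 and did not pass. TERF2IP and UBFD1 share exon sequence with these synthetase genes, and whether reads were counted by strand is not stated. WDR25, beside WARS1, fell by 0.33 on the log2 scale (edgeR adjusted p = 0.0252), with WARS1 at 0.11.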
